A study of Homo sapiens with 10 samples.

Results

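The genes described here are 43 human genes of the interferon response, including PML, followed in RNA-seq of 2 bladder cancer cell lines. They were taken from a list of interferon-response genes and matched to the deposited gene identifiers by symbol. All 43 were among the 61533 genes of the count tables, and 42 of them were among the 16181 genes with enough counts to be tested.

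T24 is an established human bladder cancer line that is sensitive to cisplatin, a platinum drug that cross-links DNA. T24R2 was derived from T24 by serial exposure to cisplatin and is resistant to it, so the comparison is between 1 parental line and 1 derived line. The methods of the study describe T24R2 as kept in medium with cisplatin, whereas the sample labels list the same drug-free medium for both lines, and the resistant state and the presence of the drug therefore cannot be told apart here. Each line gave 5 libraries at day 3, with 9257843 to 10247941 counted fragments in T24 and 9591379 to 10840954 in T24R2. The sources do not say whether the replicates were separate cultures, so p-values measure the spread between these libraries, which may be technical.

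Interferons are secreted proteins that cells release on sensing viral nucleic acids or misplaced DNA. Type I interferons bind a receptor of IFNAR1 and IFNAR2, the kinases JAK1 and TYK2 phosphorylate STAT proteins, STAT2 among them, and these join IRF9 in a complex that binds the interferon-stimulated response element (ISRE) in the promoters of many genes. Type II interferon acts through IFNGR1 and IFNGR2 and a STAT dimer, which binds the gamma-activated site (GAS). The products of the induced genes block steps of viral replication, present antigen or feed back on the pathway. PML, itself induced by interferon, builds the nuclear bodies that carry its name and that gather SUMO-modified proteins, SP100 among them. In some tumours a subset of these genes stays raised without acute infection, a pattern known as the interferon-related DNA damage signature.

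The letters of the ISRE were frequent in the promoters of these genes. The motif searched was GAAA followed by any 2 bases and GAAA again, on either strand (read from the other strand, TTTC, any 2 bases and TTTC), in RefSeq windows from 250 bases before to 50 bases after the gene start (build GRCh38.p14). A window was at hand for 32 of the 43 genes and not for IRF7, DHX58, IFIT2, OAS2, OASL, MX2, GBP2, IFITM2, USP18, PML and TRIM22. The motif was in 20 of the 32 windows (62.5%), against 996 of all 27305 promoter windows (3.65%). The palindromic GAS letters, TTC followed by any 3 bases and GAA, were in 9 of the 32 (28.1%), against 7.88% of all windows, and a GAS match can share bases with an ISRE match. Stretches that end before the gene start are shown for both genes that were higher in T24R2 and held the motif, for 5 of those that were lower and for 2 that were not called, so that the like letters can be seen in genes that moved in different directions. They are printed 5′ to 3′ on the strand of the gene, with each ISRE match in capitals.

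SAMD9, higher in T24R2, chr7:93118081-93118140, minus strand: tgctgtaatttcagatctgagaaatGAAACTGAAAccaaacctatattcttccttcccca
HERC5, higher, chr4:88457020-88457079, plus strand: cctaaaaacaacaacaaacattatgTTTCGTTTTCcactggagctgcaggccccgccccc
ISG15, lower, chr1:1013365-1013424, plus strand: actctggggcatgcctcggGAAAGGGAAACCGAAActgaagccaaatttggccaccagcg
IFITM3, lower, chr11:320861-320920, minus strand: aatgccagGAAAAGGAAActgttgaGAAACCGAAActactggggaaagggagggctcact
IFI27, lower, chr14:94110616-94110675, plus strand: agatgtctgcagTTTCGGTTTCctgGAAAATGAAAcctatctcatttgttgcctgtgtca
IFI6, lower, chr1:27672251-27672310, minus strand: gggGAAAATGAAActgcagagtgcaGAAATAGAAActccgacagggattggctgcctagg
PARP14, lower, chr3:122680785-122680838, plus strand: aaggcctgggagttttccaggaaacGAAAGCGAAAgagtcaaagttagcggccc
IFIT3, not called, chr10:89327850-89327909, plus strand: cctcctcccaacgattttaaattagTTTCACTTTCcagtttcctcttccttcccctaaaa
IFIH1, not called, chr2:162318685-162318730, minus strand: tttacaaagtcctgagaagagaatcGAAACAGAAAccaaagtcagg

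The match in SAMD9 lay 127 to 136 bases before the gene start. Of the 3 matches in the HERC5 window, the one shown lay 65 to 74 bases before the start. In ISG15 a pair of matches overlapped, the nearer one at 98 to 107 bases. In IFITM3 the nearer match lay at 26 to 35 bases and in PARP14 the match lay at 20 to 29 bases. Of the 3 matches in the IFIH1 window, the one shown lay at 12 to 21 bases. Of genes with a window, the motif was in 2 of 4 that were higher in T24R2, in 11 of 17 that were lower (64.7%) and in 7 of 11 that were not called or not tested (63.6%). The GAS letters were in 0 of 4 windows of higher genes, 6 of 17 of lower genes (35.3%) and 3 of 11 of the rest (27.3%). With 1 to 3 bases between the half-sites of the ISRE, the counts were 2 of 4, 13 of 17 (76.5%) and 9 of 11 (81.8%). With 4 windows of higher genes, no difference between directions can be read from these shares, and a match describes letters only, not binding.

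Most of the set was lower in the resistant line, and PML was in the small group that was higher. A gene was called at an adjusted p-value under 0.05 (edgeR quasi-likelihood test, Benjamini-Hochberg over all 16181 genes) and an absolute log2 fold change over 0.5, T24R2 minus T24. On this rule 24 of the 42 members fell (57.1%), 5 rose (11.9%) and 13 were not called. The lines differed across the whole transcriptome, with 51.4% of all genes tested called, 24.9% called higher and 26.5% called lower. The share of members called lower was thus above that of all genes, and the share called higher was below it. The median log2 fold change was -0.64 over the 42 members and 0.01 over all genes tested, and 33 of the 42 had a negative value. All 5 libraries of T24R2 lay outside the range of the 5 T24 libraries for 33 members (78.6%), 28 below and 5 above, against 61.2% of all genes tested. All 5 members that rose and 20 of the 24 that fell kept their call in each of the 20 other fits, wherever they had enough counts to be tested. STAT2, OASL, IFITM2 and PARP9 lost it where libraries were scaled by their totals alone, a scaling that moved the median of all genes to 0.18 and the share of higher genes among all calls from 48.5% to 60.3%. In these bulk libraries, less RNA per cell and fewer cells that express a gene cannot be told apart.

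**Figure D1:**
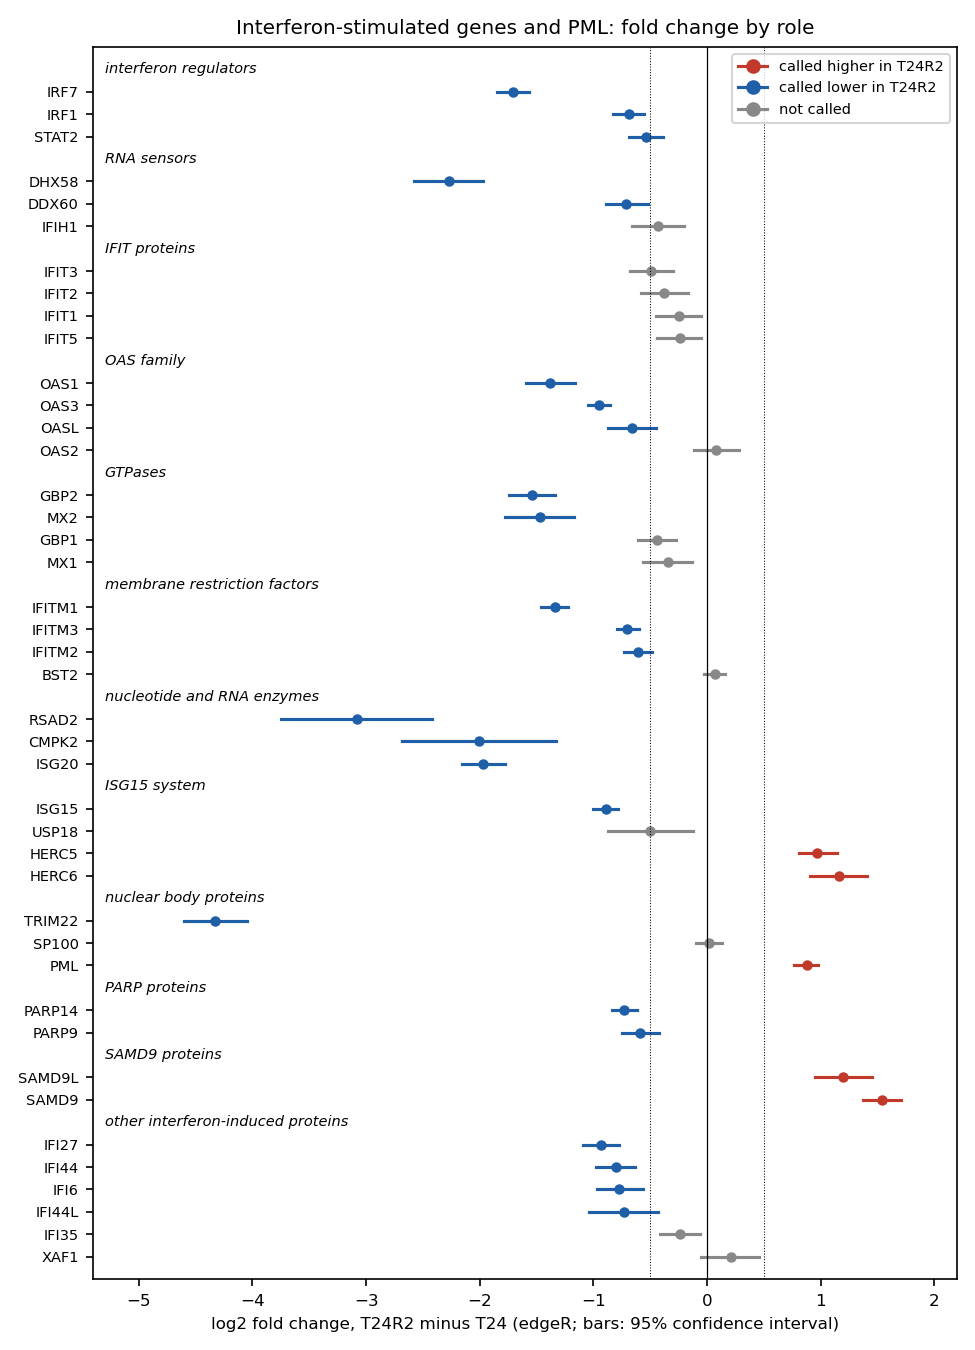
Log2 fold change of the 42 tested members (points; bars are 95% confidence intervals of the edgeR fit), grouped by role, with dotted lines at the fold change minimum of 0.5 on either side of 0. The values ran from -4.33 (TRIM22) to 1.54 (SAMD9), and 5 members, in 3 of the role groups, lay above the upper dotted line.

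Summed over the 43 genes, the level was 2109 to 2409 CPM (counts scaled to a common library total, with TMM-adjusted library sizes) in T24 and 1536 to 1642 in T24R2, without overlap. The 24 members called lower made 1560 to 1772 CPM in T24 and 841 to 918 in T24R2. The 13 members not called made 407 to 474 and 384 to 425 CPM, so their ranges overlapped. These sums are weighted toward the most abundant genes, and the ranges of the called members are descriptions of genes chosen by their call.

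PML was among the 5 genes that rose. It encodes the scaffold of PML nuclear bodies and lies on the plus strand of chromosome 15 (ENSG00000140464.20, chr15:73994673-74047827, hg38). Its level in the T24 libraries was 103, 95.1, 102, 110 and 100 CPM, and in the T24R2 libraries it was 180, 178, 203, 181 and 194 CPM. Every T24R2 library was above every T24 library, and the gap between the lines was wider than the range within either. The 5 libraries averaged 102 CPM with an SD of 5.25 in T24, and 187 CPM with an SD of 10.8 in T24R2, as all values with ± give the mean and SD of 5 libraries. The difference was 1.84-fold, with a log2 fold change of 0.88 (SE 0.05, edgeR adjusted p = 7.4e-19, exact two-sided permutation p = 0.00794, the smallest that 5 against 5 libraries can give). An unnamed gene on the opposite strand, ENSG00000287543, shares 4.62% of the PML exon bases and also rose (log2 fold change 0.86), and with its counts subtracted from those of PML the log2 ratio stayed at 0.88.

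The other 2 nuclear body proteins of the set did not follow PML. SP100, a SUMO-modified resident of the same bodies, had 75.4, 71.0, 73.8, 84.0 and 72.3 CPM in T24 and 69.7, 75.2, 80.6, 76.4 and 78.8 in T24R2. The 2 ranges of SP100 overlapped almost fully, and its log2 fold change of 0.02 had a 95% interval from -0.10 to 0.13 (edgeR adjusted p = 0.814). TRIM22, an antiviral E3 ubiquitin ligase that is found in nuclear bodies and cytoplasm, fell the furthest of all members. It had 34.4, 34.9, 34.5, 41.4 and 31.6 CPM in T24, and 1.74, 1.30, 1.92, 2.05 and 1.77 in T24R2. The T24R2 level was 4.97% of that in T24 (20.1-fold lower, log2 fold change -4.33, SE 0.13, edgeR adjusted p = 9.6e-28). Counts in T24R2 were 15 to 23 per library, above the floor of 3 counts used here, so the gene was low but not absent.

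**Figure D2:**
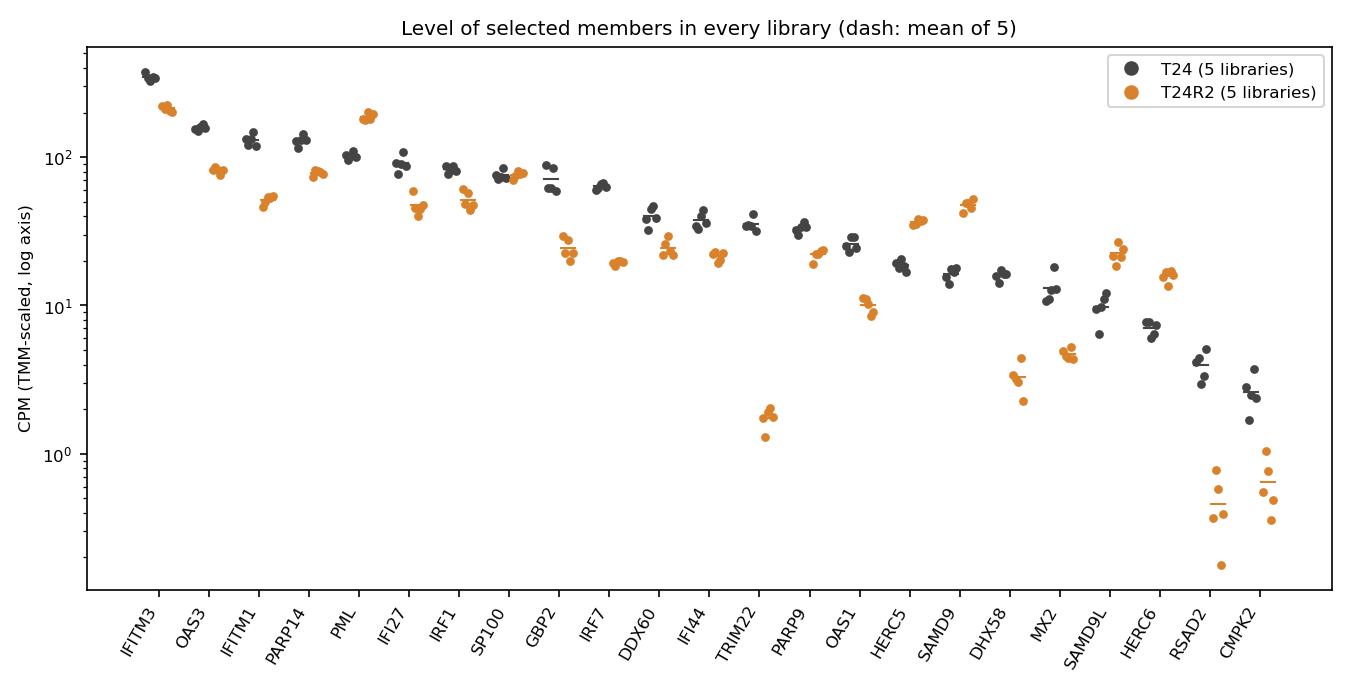
CPM on a log axis in each of the 5 T24 libraries (grey) and 5 T24R2 libraries (orange) for the 22 called members with the largest changes in their role group and for SP100, with a dash at the mean. Only in SP100 do the points of the lines overlap. PML, HERC5, HERC6, SAMD9 and SAMD9L have the orange points on top, and TRIM22 and RSAD2 show the widest gaps.

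The remaining genes that rose belong to pairs of neighbouring paralogs. SAMD9 and SAMD9L lie side by side on chromosome 7 and encode cytoplasmic antiviral proteins that restrain translation and growth. SAMD9 had 15.5, 13.9, 17.7, 16.9 and 18.0 CPM in T24 and 42.2, 49.3, 48.9, 45.1 and 52.3 in T24R2. This was the largest rise among the members (2.90-fold, log2 fold change 1.54, SE 0.08, edgeR adjusted p = 2.1e-19). SAMD9L had 9.44, 6.42, 9.83, 11.0 and 12.1 CPM in T24 and 21.7, 18.6, 26.7, 21.2 and 24.2 in T24R2, a 2.30-fold difference (log2 fold change 1.20, SE 0.12, edgeR adjusted p = 3.2e-11).

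The ISG15 system was divided. ISG15 is a ubiquitin-like protein that is joined to other proteins by the E3 ligase HERC5 and taken off by the protease USP18, and HERC6 is a relative of HERC5. HERC5 rose, from 19.4, 18.0, 20.5, 18.6 and 16.7 CPM in T24 to 34.8, 35.2, 38.2, 37.2 and 37.5 in T24R2 (1.96-fold, log2 fold change 0.97, SE 0.08, edgeR adjusted p = 8.3e-14). HERC6 rose as well, from 7.68, 7.78, 6.06, 6.45 and 7.34 CPM to 15.5, 16.9, 13.5, 17.1 and 16.0 (2.24-fold, log2 fold change 1.16, SE 0.12, edgeR adjusted p = 6.5e-11). ISG15 itself fell, from 101 ± 3.88 to 54.6 ± 3.31 CPM (log2 fold change -0.89, SE 0.06). USP18, at 6.68 ± 1.40 and 4.70 ± 1.13 CPM, was at the fold change minimum (-0.50, SE 0.18, edgeR adjusted p = 0.0150), and it was called or not called depending on the fit. Transcripts of HERC5 and HERC6 thus rose in the line in which that of ISG15 fell, and the joining of ISG15 to proteins was not measured.

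The transcription factors that carry the interferon signal were lower where they could be measured. IRF7, the factor that amplifies type I interferon production, had 59.9, 62.3, 65.8, 67.2 and 62.9 CPM in T24. In T24R2 it had 19.4, 18.5, 19.8, 20.0 and 19.7 CPM, a narrow range at 30.6% of the T24 level (log2 fold change -1.71, SE 0.07, edgeR adjusted p = 9.4e-24). IRF1, the factor that responds to type II interferon, had 87.3, 76.6, 81.7, 87.8 and 81.1 CPM in T24 and 60.6, 48.3, 57.2, 43.7 and 47.6 in T24R2. Its log2 fold change was -0.69 (SE 0.07, edgeR adjusted p = 1.1e-11), and -0.75 after the counts of IRF1-AS1, which shares 22.9% of its exon bases on the opposite strand, were subtracted. STAT2 fell from 71.9 ± 8.58 to 49.5 ± 5.15 CPM, close to the fold change minimum (log2 fold change -0.54, SE 0.07).

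IRF9, the DNA-binding partner of STAT2, was at 0.364 ± 0.139 CPM in T24 and 0.345 ± 0.278 in T24R2 and was not tested. With 0 to 7 counts per library, no difference was detectable at this depth. In the annotation used, 42.2% of its exon bases are shared with ENSG00000259529 on the same strand, and the counting program leaves out fragments that fit more than 1 gene, so these counts cannot be read as the level of IRF9.

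Among the sensors of viral RNA, DHX58 (LGP2), a regulator of RIG-I-like receptors without a signalling domain, fell most. Its level was 15.9, 14.1, 17.4, 16.3 and 16.2 CPM in T24 and 3.39, 3.21, 3.07, 4.45 and 2.26 in T24R2 (log2 fold change -2.27, SE 0.15, edgeR adjusted p = 7.2e-17). DDX60, a helicase that aids RIG-I signalling, had 38.1, 32.1, 44.6, 46.7 and 39.1 CPM in T24 and 22.0, 26.1, 29.5, 23.2 and 21.9 in T24R2 (log2 fold change -0.71, SE 0.09, edgeR adjusted p = 7.5e-09). IFIH1 (MDA5), the sensor of long double-stranded RNA, had overlapping ranges of 13.9 to 19.2 and 10.1 to 14.9 CPM and was not called (-0.43, 95% interval -0.66 to -0.20).

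All 3 enzymes that act on nucleotides and RNA fell, RSAD2 by more than any member other than TRIM22. RSAD2 (viperin) makes a chain-terminating nucleotide, CMPK2 is its genomic neighbour and a nucleotide kinase, and ISG20 is an exonuclease. RSAD2 had 4.15, 4.42, 2.97, 3.33 and 5.08 CPM in T24 and 0.367, 0.780, 0.576, 0.178 and 0.393 in T24R2, which is 26 to 47 counts against 2 to 9. CMPK2 had 2.80, 1.68, 2.51, 3.76 and 2.38 CPM in T24 and 0.551, 1.04, 0.768, 0.356 and 0.492 in T24R2. Both pairs of ranges were apart, but the few counts made these the widest intervals of the set. The log2 fold changes were -3.08 (95% interval -3.75 to -2.42, edgeR adjusted p = 5.9e-11) for RSAD2 and -2.01 (-2.68 to -1.33, edgeR adjusted p = 1.2e-06) for CMPK2. ISG20 fell on firmer counts, from 42.9 ± 4.28 to 10.9 ± 1.13 CPM (log2 fold change -1.97, SE 0.09).

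Members of the OAS family did not all move alike. The OAS enzymes make a second messenger of RNA decay when double-stranded RNA is present, and their genes OAS1, OAS3 and OAS2 are adjacent on chromosome 12. OAS1 had 25.3, 23.1, 29.0, 28.8 and 24.3 CPM in T24 and 11.3, 11.1, 10.2, 8.55 and 9.05 in T24R2 (log2 fold change -1.38, SE 0.11, edgeR adjusted p = 6.6e-15). OAS3 had 154, 151, 159, 168 and 158 CPM in T24 and 82.3, 85.8, 82.0, 76.2 and 82.1 in T24R2 (-0.95, SE 0.05, edgeR adjusted p = 3.2e-20). OAS2 ranged from 26.2 to 35.0 CPM in T24 and from 24.4 to 39.5 in T24R2, with a log2 fold change of 0.08 (95% interval -0.11 to 0.28). The intervals of OAS1 and OAS3 lay below 0 in full, at -1.59 to -1.16 and -1.05 to -0.85, and did not meet that of OAS2. OASL, a relative that enhances RIG-I signalling, fell from 22.7 ± 2.47 to 14.3 ± 1.96 CPM (-0.66, SE 0.10).

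The GTPases also differed among themselves. MX1 and MX2, adjacent on chromosome 21, trap viral nucleocapsids, and the guanylate-binding proteins GBP1 and GBP2 coat intracellular pathogens. GBP2 had 88.4, 61.5, 62.2, 84.1 and 58.8 CPM in T24 and 29.6, 22.5, 27.6, 19.9 and 22.5 in T24R2 (log2 fold change -1.54, SE 0.10, edgeR adjusted p = 3.7e-17). MX2 had 10.8, 11.0, 12.7, 18.2 and 13.0 CPM in T24 and 4.95, 4.59, 4.41, 5.26 and 4.33 in T24R2 (-1.47, SE 0.15, edgeR adjusted p = 3.0e-11). Their partners moved less. GBP1, at 44.6 ± 7.03 and 32.9 ± 2.74 CPM, had a log2 fold change of -0.44 (95% interval -0.61 to -0.27), and MX1, at 22.8 ± 3.73 and 18.0 ± 2.57 CPM, had -0.34 (-0.56 to -0.13). Neither partner passed the fold change minimum.

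The membrane restriction factors included the most abundant transcripts of the set. IFITM1, IFITM2 and IFITM3 hinder the fusion of viral and cell membranes, and BST2 (tetherin) holds budding virions at the cell surface. IFITM1 had 133, 120, 132, 147 and 118 CPM in T24 and 46.3, 49.6, 53.8, 53.2 and 54.5 in T24R2 (log2 fold change -1.34, SE 0.06, edgeR adjusted p = 2.7e-22). IFITM3 had 377, 340, 324, 348 and 343 CPM in T24 and 222, 212, 226, 206 and 201 in T24R2 (-0.70, SE 0.05, edgeR adjusted p = 7.7e-17). IFITM2 fell from 93.1 ± 7.28 to 61.1 ± 5.17 CPM (-0.61, SE 0.06). BST2 stood at 119 ± 4.86 and 124 ± 3.62 CPM, and its interval of -0.03 to 0.16 leaves room for only a small change in either direction. The IFITM genes resemble each other in sequence, and the authors kept uniquely mapped reads only, so reads from their shared stretches may be missing from these counts.

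The IFIT proteins, which bind viral RNA that lacks the host cap structure, had 0 of 4 genes called. All 4 values were negative, from -0.49 (IFIT3, 95% interval -0.68 to -0.30) through -0.38 (IFIT2) and -0.25 (IFIT1) to -0.24 (IFIT5), each with an edgeR adjusted p under 0.05. The means in T24 and T24R2 were 24.7 ± 2.38 and 17.6 ± 1.91 CPM for IFIT3, 18.8 ± 1.63 and 14.4 ± 1.25 for IFIT2, 18.5 ± 1.00 and 15.6 ± 1.05 for IFIT1, and 20.3 ± 1.45 and 17.1 ± 1.84 for IFIT5. Libraries of the lines did not overlap for IFIT1, IFIT2 and IFIT3. IFIT5 overlapped, at 18.9 to 22.7 CPM in T24 and 15.1 to 19.5 in T24R2.

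PARP14 and PARP9 encode ADP-ribosyltransferases, and PARP9 works with the ligase DTX3L. PARP14 had 129, 115, 130, 144 and 131 CPM in T24 and 73.8, 81.9, 80.1, 79.6 and 76.6 in T24R2 (log2 fold change -0.73, SE 0.05, edgeR adjusted p = 3.3e-15). PARP9 had 32.4, 30.1, 33.6, 36.6 and 33.7 CPM in T24 and 19.1, 22.2, 22.4, 23.3 and 23.8 in T24R2 (-0.59, SE 0.08, edgeR adjusted p = 4.8e-08). In both genes the highest T24R2 library was below the lowest T24 library.

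Of the remaining interferon-induced genes, 4 of 6 fell. IFI27, a mitochondrial protein often used as a marker of interferon exposure, had 91.3, 77.2, 89.7, 108 and 87.4 CPM in T24 and 59.4, 45.7, 40.1, 45.0 and 47.8 in T24R2 (log2 fold change -0.93, SE 0.08, edgeR adjusted p = 6.9e-14). IFI44 had 34.6, 32.9, 39.9, 44.0 and 36.2 CPM in T24 and 22.4, 22.8, 19.2, 20.3 and 22.7 in T24R2 (-0.80, SE 0.09, edgeR adjusted p = 6.7e-11). IFI6 (28.8 ± 2.52 and 16.9 ± 3.25 CPM, -0.77) and IFI44L (10.1 ± 1.54 and 6.09 ± 0.939 CPM, -0.73) also passed both thresholds. IFI35 was not called at -0.24 (25.6 ± 2.03 and 21.7 ± 1.31 CPM). XAF1, an antagonist of the apoptosis inhibitor XIAP, had overlapping libraries at 12.4 ± 2.54 and 14.3 ± 1.98 CPM (0.21, 95% interval -0.05 to 0.46), and 38.3% of its exon bases are shared with PRAL on the opposite strand.

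Levels of different genes can be compared only per length, here as CPM per kilobase of merged exons. On this scale IFITM3 led in T24 at 122 ± 6.80 and ISG15 followed at 116 ± 4.47, with overlapping libraries, and ISG15 also overlapped BST2 at 108 ± 4.42. In T24R2 BST2 led at 113 ± 3.29, and IFITM3 (75.1 ± 3.73) and ISG15 (63.0 ± 3.82) came after it, each apart from its neighbours in the order. IFITM1 stood at position 4 in T24, at 78.0 ± 6.98, and at position 5 in T24R2, at 30.9 ± 2.07. PML stood at position 15 of 43 in T24, at 8.05 ± 0.414, and at position 7 in T24R2, at 14.8 ± 0.853, where it overlapped IFI6 before it and IFI27 after it. TRIM22 went from position 19 to position 40. Apart from IRF9, whose counts are not a measure of its level, CMPK2 was lowest in T24 at 0.599 ± 0.172, overlapping RSAD2, and RSAD2 was lowest in T24R2 at 0.0811 ± 0.0403, overlapping CMPK2. The merged exon length counts every annotated isoform, so genes with long alternative exons read low on this scale. It also counts exon bases shared with another gene on the same strand, where fragments that fit both genes are left out. These make 21.1% of the exon bases of IFITM1 and 23.1% of those of IFI6, so such genes may read low as well.

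**Figure D3:**
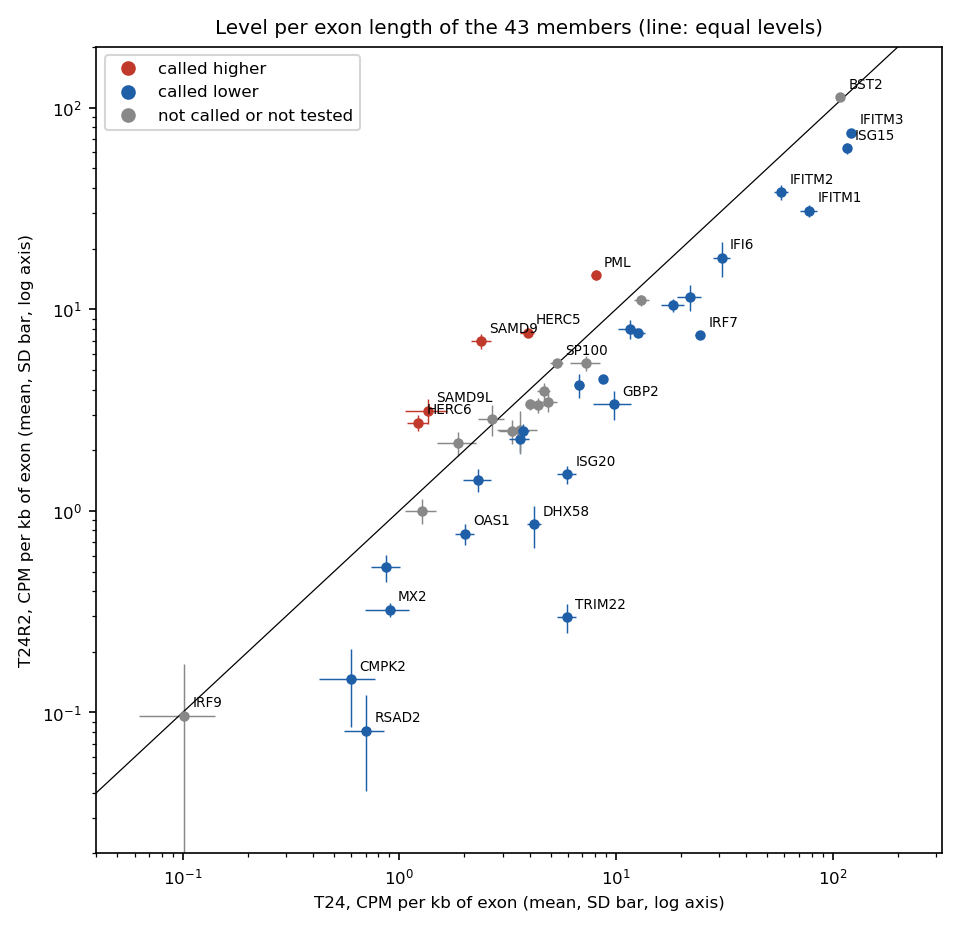
Mean CPM per kilobase of exon in T24 (horizontal) and T24R2 (vertical), both on log axes with SD bars over 5 libraries, for all 43 members, and the line of equal levels. BST2 and SP100 lie close to the line, the 5 genes called higher lie above it, and TRIM22 lies furthest below.

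Genes of the pathway outside the set moved in both directions. Over 7 lists, from interferons and receptors to further interferon-stimulated genes and partners of PML, 106 genes were listed and 79 tested, of which 11 rose and 26 fell (median log2 fold change -0.18). Over all genes tested, 24.9% were called higher and 26.5% lower. The calls here and in each list below are to be read beside those shares. The interferon genes themselves were near 0, with 1 to 5 counts per T24 library and 1 to 5 per T24R2 library summed over 21 genes, and 0 of them could be tested. A transcript at that level is not shown to be absent, since interferons act at low amounts and 0 to 3 counts in a library are within the counting floor.

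Receptor subunits were lower. Of 5 tested, 3 fell and 2 were not called. IFNGR2, a chain of the type II receptor, fell from 98.1 ± 4.74 to 28.4 ± 2.78 CPM (log2 fold change -1.79, SE 0.06, edgeR adjusted p = 1.8e-25). IFNAR2, a chain of the type I receptor, was at 22.2 ± 2.45 and 5.30 ± 0.867 CPM (-2.06, SE 0.13). However, 41.4% of the IFNAR2 exon bases are shared with the IFNAR2-IL10RB readthrough gene, and the counts of IFNAR2 hold only part of its fragments. On the opposite strand, IL10RB-DT shares 36.7% of the IFNAR2 exon bases and also fell (-1.81). Its mean was 111 counts per library beside 132 for IFNAR2, and the part of this overlap in the IFNAR2 value was not tested. IFNLR1, of the type III receptor, went from 4.85 ± 0.675 CPM to 0.0367 CPM, a mean of 0.400 counts per library. The relay below the receptors differed less, and 0 of 5 genes (JAK1, JAK2, TYK2 and STAT3 among them) were called, with values from -0.21 to 0.23.

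Of 8 brakes on the pathway, 1 rose and 2 fell, and the number that rose was 2 without T24 replicate 1, without T24 replicate 2 or with a mean of at least 100 counts, and 3 under upper-quartile normalization or scaling by totals. SOCS3, a feedback inhibitor of JAK kinases, fell from 44.2 ± 1.72 to 8.94 ± 0.749 CPM (log2 fold change -2.30, SE 0.09, edgeR adjusted p = 1.5e-24). The phosphatase PTPN6 went from 7.96 ± 1.02 CPM to 0.0197 CPM, a mean of 0.200 counts per library. TRIM24, a transcriptional co-regulator, rose from 15.8 ± 2.58 to 26.2 ± 2.06 CPM (0.73, SE 0.10).

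Of 11 tested genes for sensing and adaptor proteins, 3 rose and 3 fell. STING1, the adaptor of cytosolic DNA sensing, rose from 38.7 ± 1.82 to 69.3 ± 6.80 CPM (log2 fold change 0.84, SE 0.07), and CGAS, the DNA sensor upstream of it, rose from 15.2 ± 1.73 to 30.2 ± 2.63 CPM (0.99, SE 0.09). MAVS, the adaptor of the RNA sensors, fell from 342 ± 18.8 to 239 ± 10.2 CPM (-0.52, SE 0.05). TLR3, TICAM1 and RIGI were the others called, at 1.09, -0.66 and -0.79, and they are named after their values were seen. RIGI rests on 8 to 26 counts per library with overlapping lines (2.51 ± 0.276 and 1.46 ± 0.663 CPM, edgeR adjusted p = 0.0150), and 43.2% of its exon bases are shared with another gene on the same strand, so its counts may hold only part of its fragments. The number of this list that fell was 2 without T24 replicate 3, T24 replicate 4, T24R2 replicate 2 or T24R2 replicate 4. It was also 2 under upper-quartile normalization or scaling by totals, and 1 with a mean of at least 100 counts. CGAS and STING1 thus rose while the RNA helicases DHX58 and DDX60 fell, but TLR3, also a sensor of RNA, rose and IFIH1 was not called. These are single genes, and a contrast between DNA and RNA sensing was not tested.

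A second list of 40 interferon-stimulated genes, not members of the set, had 36 tested, of which 5 rose, 15 fell and 16 were not called, with a median log2 fold change of -0.17. The 3 with the smallest p-values all fell: LGALS3BP, a secreted glycoprotein, from 506 ± 16.3 to 228 ± 15.3 CPM (-1.15), GBP3 from 59.8 ± 5.23 to 21.4 ± 0.799 CPM (-1.48) and LAMP3 from 12.8 ± 2.06 to 0.778 ± 0.321 CPM (-4.03). Among the genes that rose, named after their values were seen, were TRANK1 (1.24), ADAR (0.71), NMI (0.69) and SP140L (0.51). The median of the list was nearer to 0 than that of the 42 members.

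For the partners of PML and the enzymes of SUMO conjugation, 2 of 14 rose and 3 fell. HIPK2, a kinase recruited to PML bodies, had the largest change, from 69.2 ± 4.33 to 270 ± 9.73 CPM (log2 fold change 1.96, SE 0.05, edgeR adjusted p = 1.2e-30). The modifier SUMO2 fell from 247 ± 11.1 to 135 ± 5.56 CPM (-0.87, SE 0.05). The SUMO proteases SENP6 (0.82) and SENP2 (-0.64) were also called.

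Several members sit among genes that moved in the same direction. On the short arm of chromosome 11, IRF7 had 43 tested genes within 500 kb that are not members of the set, of which 32 were called lower and 1 higher, with a median log2 fold change of -0.93. For IFITM3, 24 of 35 such neighbours were called lower and 1 higher (median -0.81). The changes of IRF7 (-1.71) and IFITM1 (-1.34) were larger than these medians, whereas those of IFITM2 (-0.61) and IFITM3 (-0.70) were not. Without the 5 members on chromosome 11, 19 members were called lower and 5 higher.

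Of the genes that rose, the HERC and SAMD9 pairs also had nearest neighbours that rose. HERC5 and HERC6 on chromosome 4 lie between PPM1K (1.06) and NAP1L5 (1.18), and SAMD9 and SAMD9L on chromosome 7 lie between CDK6-AS1 (1.18) and VPS50 (0.80), all called higher. Within 500 kb, the median was 1.06 over 5 genes for HERC5, 0.48 over 6 genes for HERC6, 0.80 over 3 genes for SAMD9 and 0.99 over 2 genes for SAMD9L. PML had 11 such genes at a median of -0.07, with 4 called lower and 3 higher. It starts 0.0510 kb after STOML1, which was called higher at 1.25, while the next tested gene on the other side, SEMA7A, was called lower at -4.01. RSAD2, CMPK2, IFI44 and IFI44L had 0 tested genes within 500 kb that are not members of the set. DHX58 was the opposite case, with 34 neighbours at a median of -0.30 beside its own -2.27. The part of these regional differences in the values of the members was not tested.

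**Figure D4:**
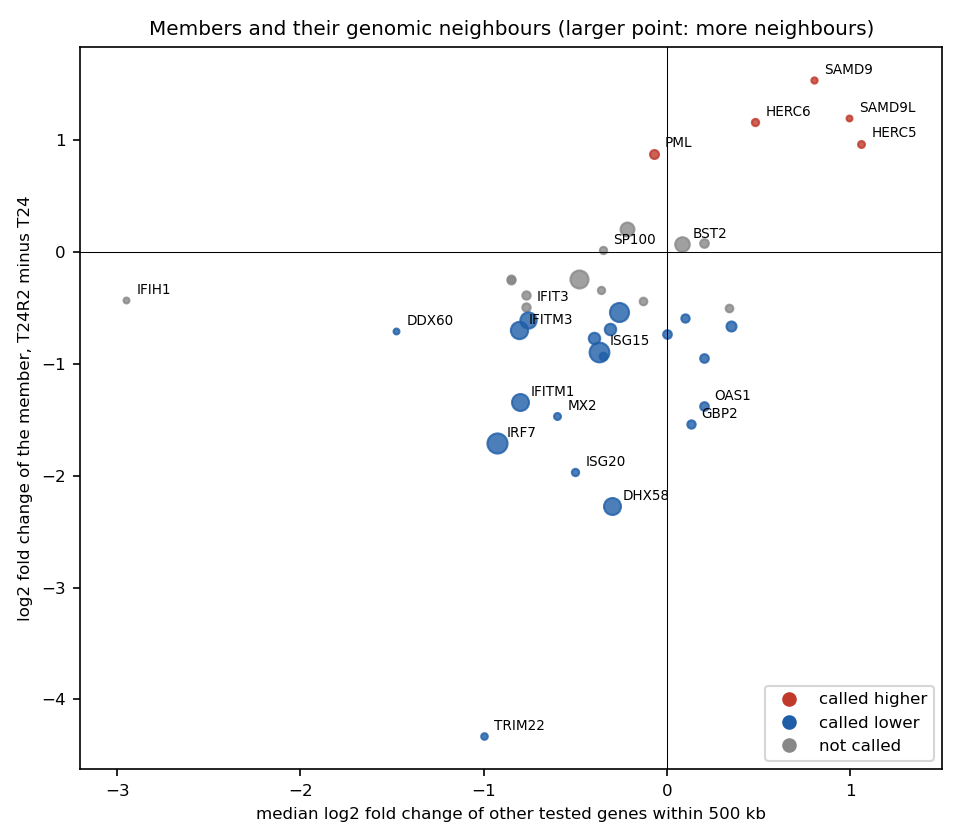
Log2 fold change of each member against the median log2 fold change of those tested genes no more than 500 kb away that are not members, for the 38 members with at least 2 such genes; a larger point has more of them. HERC5, HERC6, SAMD9 and SAMD9L are in the upper right, IRF7 and the IFITM genes in the lower left, and TRIM22 and DHX58 lie well below their neighbours.

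Within T24, many of the members were high or low in the same libraries. Of 37 members with a mean of at least 10 CPM in T24, T24 replicate 4 had the highest value for 20 (54.1%), while it was highest for 20.7% of all genes at that level, and its median deviation from the mean of the line was 0.14 on the log2 scale. T24 replicate 2 had the lowest value for 20 of the 37, with a median deviation of -0.11. The median deviation of all genes at that level in replicate 2 was 0.01, and the share of them lowest there was not counted. MX2 is an example, at 18.2 CPM in replicate 4 against 10.8 to 13.0 in the other T24 libraries. In T24R2, with 35 members at that level, no library was highest for more than 11, and the median deviations ran from -0.05 to 0.06. T24R2 replicates 1 and 3 were each highest for 11 members (31.4%), against 23.2% and 30.7% of all genes at that level. Leaving out T24 replicate 4 gave 24 members called lower and 5 higher, and leaving out T24 replicate 2 gave 25 and 5.

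**Figure D5:**
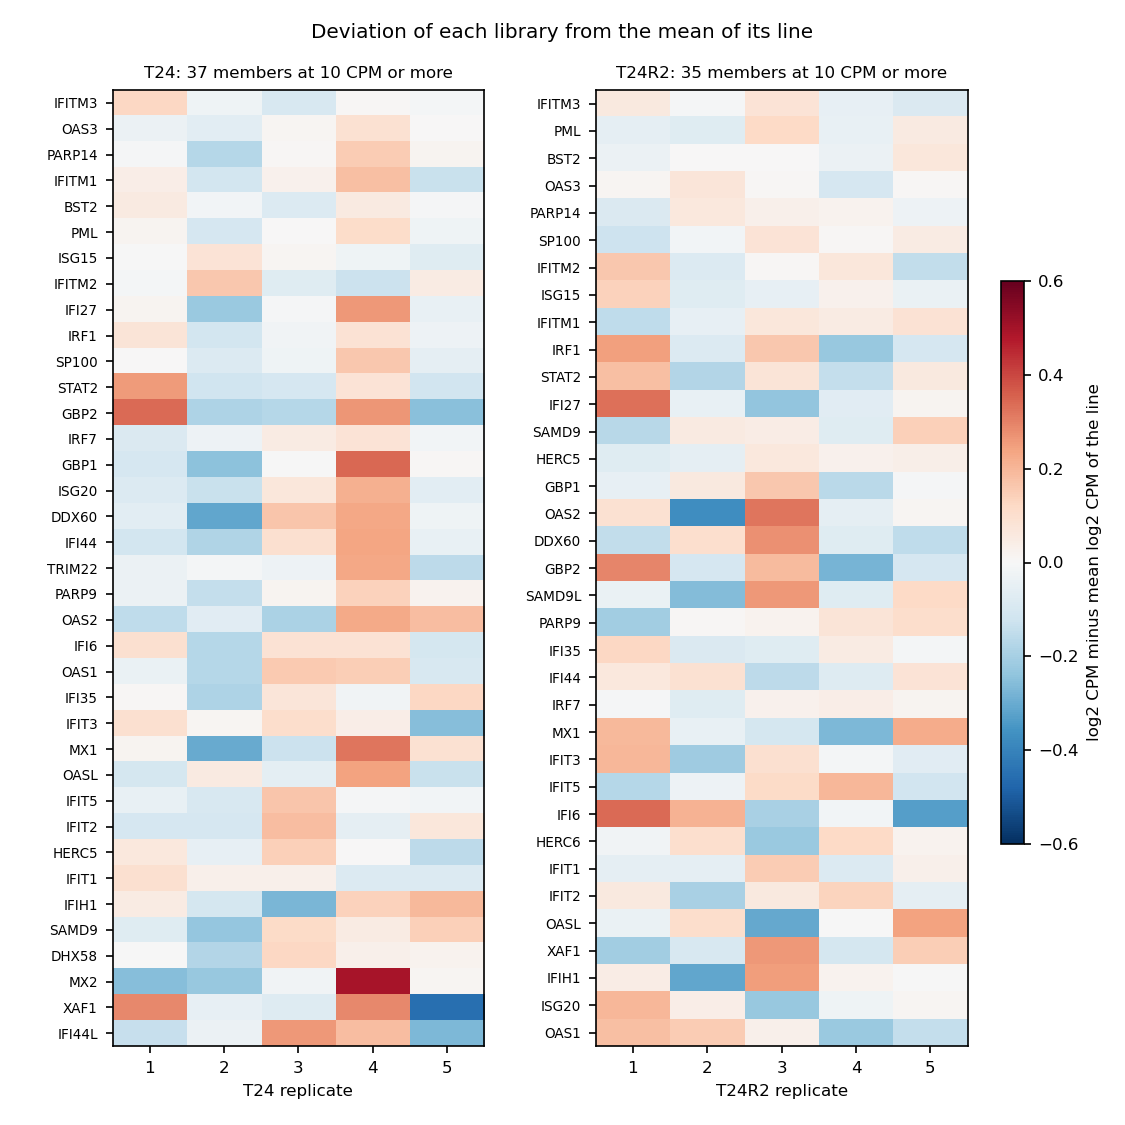
Log2 CPM of each library minus the mean of its line, for the 37 members at 10 CPM or more in T24 (left) and the 35 in T24R2 (right), ordered by level. The column of T24 replicate 4 is mostly red (median 0.14) and that of T24 replicate 2 mostly blue (median -0.11), while the T24R2 columns are mixed.

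The identity of the cells was checked against markers. The 12 leukocyte markers summed to 1.19 to 2.69 CPM in T24 and 1.25 to 1.74 in T24R2, with MS4A1, CD3D and TYROBP at 0 in every library. PTPRC was at 0.0439 ± 0.0602 CPM in T24 and 0.475 ± 0.316 in T24R2, and CD14 at 1.12 ± 0.531 and 0.0929 ± 0.0939, both without overlap of the lines and too low to be tested in the fit. The 16 urothelial and epithelial markers summed to 4943 to 5676 CPM in T24 and 3013 to 3217 in T24R2, nearly all from KRT7, KRT8 and KRT18. All 8 that could be tested fell, among them KRT19 from 267 to 0.0887 CPM, GATA3 from 22.1 to 0.214 CPM and PPARG from 75.9 to 26.2 CPM, as means, while CDH1, KRT20, UPK1B and UPK3A were at or under the floor in both lines. Their part in the differences of the interferon-stimulated genes was not tested.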

How the data were processed

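The deposited values are raw counts of fragments per gene and library. Per the labels, the file headers and the methods of the study, the authors used STAR 2.7.0 for alignment (hg38), removed duplicates and reads with several positions by SAMtools 1.10, and ran featureCounts 2.0.1 on GENCODE release 39 at strand option 1, which leaves out fragments that fit more than 1 gene. The library kit is not described there as strand-specific, so a member that overlaps a gene on the opposite strand may share counts with it. Removal of duplicates can lower the most abundant transcripts.

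Here the counts of 5 T24 and 5 T24R2 libraries were compared in R 4.3.3 with edgeR 4.0.16 (filterByExpr, TMM, glmQLFit and glmQLFTest, line as the only term), with Benjamini-Hochberg adjustment over 16181 genes. A call needed an adjusted p-value below 0.05 together with a log2 fold change above 0.5 in size. The biological coefficient of variation was 6.61%. CPM used TMM-scaled library sizes. No libraries looked like repeats of each other, as counts of all 20 replicate pairs varied beyond Poisson noise. Genes with at most 3 counts in each library of a line were read as at the floor, which covers counting error only. In simulated counts for this comparison on 16181 genes, 100 of 100 genes changed by 1 on the log2 scale and 4 unchanged genes were called, and the median error of the former was 0.0641. The simulation gave all genes the same dispersion and changed few of them, well counted and with equal rises and falls. In the real comparison 51.4% of genes were called, so the simulation does not give its error rates, nor those of members with few counts.

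Members and lists were chosen with earlier results of these data known. All members are named, with per-library values for PML, SP100 and the 2 largest changes among the called members of each role group at a mean of at least 1 CPM in 1 line. Of every other list, the 3 called genes with the smallest adjusted p-value and at least 1 CPM are given, except that the results of some listed genes are not reported here. Exon overlaps used bedtools 2.31.1 on the coordinates in the tables, and 3836 tested genes shared over 10% of their exon bases with the opposite strand. Promoter windows came from RefSeq, GRCh38.p14. Other steps used Python 3.11.15, numpy 2.4.6, pandas 2.3.3 and matplotlib 3.10.9. The labels name no batch. Alternatives were other scalings, limma-voom (limma 3.58.1), DESeq2 1.42.0 with no, normal or apeglm (1.24.0) shrinkage, other count filters and thresholds, a replicate block, subtraction of opposite-strand counts, a looser ISRE and leaving out each library. The m6A data of the study were not used here.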

Additional observations from a re-analysis of the deposited data

Results flagged for a closer look

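Of 74 sets of 5 libraries examined (the CPM of each member at 10 CPM or more in a line, and the summed CPM of the members), 1 held a library far from the others by Dixon's criterion, where about 3.70 would be marked by chance at 1 in 20. IFIT3 was at 20.6 CPM in T24 replicate 5, below the 24.8 to 26.5 CPM of the other T24 libraries, with a gap of 0.714 of the whole range. Without that library IFIT3 passed both thresholds, with a log2 fold change of -0.55.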

How the results depend on the processing

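The 20 other fits (other scalings, DESeq2, limma-voom, count filters, a replicate block, and each library left out) gave 5 members higher in every one and 19 to 26 members lower. Leaving out 1 library gave 24 to 26 members lower, 5 higher, a PML log2 fold change of 0.85 to 0.90, and 10 to 12 genes higher and 24 to 26 lower on the pathway lists. Scaling by library totals alone moved the median of all genes to 0.18 and the share of calls that were higher from 48.5% to 60.3%; it left 20 members lower, with STAT2 at -0.38, OASL at -0.50, IFITM2 at -0.44 and PARP9 at -0.42. STAT2 was also lost with upper-quartile normalization (-0.47), without T24 replicate 1 (-0.47) and without T24R2 replicate 2 (-0.50). IFIT3 was gained when T24 replicate 5 was left out (-0.55), and likewise for T24R2 replicate 1 (-0.54) and for replicate 3 of that line (-0.51), and USP18 was gained in 8 of its 19 fits. SP100 ranged from -0.01 to 0.06 with 1 library left out and was negative only without T24R2 replicate 3. With a minimum absolute log2 fold change of 1, 3 members were higher and 10 lower, and 3 pathway genes were higher; with no minimum, 33 members were lower and 26 pathway genes higher. A mean of at least 100 counts left 15 pathway genes lower, because fewer genes are tested. Over all genes, 4027 were higher and 4282 lower, against 2350 and 2641 with that filter. A pair of alternatives was added after seeing the data: without members that share over 10% of exon bases on the same strand, 21 were lower and 5 higher, and without chromosome 11, 19 and 5. The looser ISRE was in 24 of 32 windows, against 8.84% of all. With the replicate number as a block, 25 members were lower and 5 higher and PML was at 0.88; same-numbered libraries did not deviate together (correlations -0.021 to 0.0155, and only replicate 2 correlated best with its own number), so the libraries share only a number. At 2 to 9 counts per library, RSAD2 in T24R2 is near the limit of what this depth resolves.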
